A study of Mus musculus with 11 samples.

Results

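The alpha and beta tubulin isotypes examined here are the 10 genes Tubb2a, Tubb2b, Tubb3, Tubb5, Tubb6, Tuba1a, Tuba1b, Tuba1c, Tuba4a and Tuba8. They were taken from an Affymetrix Mouse Gene ST 1.1 array as every probe set whose gene symbol was exactly one of these names. This gave 10 of the 21759 gene symbols on the array and 13 of its 28350 probe sets, since Tuba1b had 3 probe sets and Tubb2b had 2. Messenger RNA was measured in the tibialis anterior (TA) of 11 male mice, each with its own array, from RNA of frozen sections through the middle of the muscle. Wild-type C57/B10 mice, called C57 (n = 3), were compared with mdx mice (n = 4). The mdx mice carry a nonsense mutation in Dmd on the same background and lack full-length dystrophin. In rare revertant fibres, alternative splicing yields low levels of dystrophin. A further 4 mdx mice carried the same mutation and were given Pip6e-PMO once, as an intravenous dose of 12.5 mg/kg, when they were 12 weeks old. Pip6e-PMO is an antisense oligomer joined to a cell-penetrating peptide that makes the mutated Dmd exon be skipped and so restores a shortened dystrophin. All mice were sampled at 14 weeks of age, and the C57 and mdx mice were untreated.

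Microtubules are hollow polymers of alpha and beta tubulin dimers, and mammals encode several isotypes of each chain that differ mostly in their acidic C-terminal tails. In a muscle fibre they form a lattice under the membrane and around the nuclei, and dystrophin binds to it. Disordered and denser microtubules are a known feature of mdx fibres. Tubulin also makes up much of the cytoskeleton of dividing myoblasts, macrophages, fibroblasts and nerve.

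Of the 13 tubulin probe sets, 5 carried the array's flag for possible cross-hybridization, crosshyb type 3, which means that some probes may also bind other transcripts. The flag was on 3118 of all 28350 probe sets. It covered all 3 probe sets of Tuba1b, the single probe set of Tuba1c and the second one of Tubb2b. The alpha tubulins Tuba1a, Tuba1b and Tuba1c are near-identical in sequence, so the values of Tuba1b and Tuba1c may each hold signal of the other. Each gene was read at its brightest probe set. For Tuba1b that probe set was placed by the deposited table at bases 90991986 to 90993338 of chromosome 9, while another of its probe sets lay on chromosome 15, where Tuba1a and Tuba1c were also placed. RefSeq promoter sequences also place the start of Tuba1b on chromosome 15, so the brightest probe set is placed away from that gene. Whether its signal comes from Tuba1b transcripts or from a near-copy at another site could not be settled from the files. Every Tuba1b value below carries this doubt. Tubb2a and Tubb2b lay on chromosome 13, and the second Tubb2b probe set on chromosome 12. Whether that second probe set measures Tubb2b itself could not be settled either, so its values carry the same doubt. The table names no genome build, so these positions hold only within it.

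Array median signals lay between 27.5 and 28.6, and 8 markers of mature muscle fibre, such as Acta1 and Ckm, summed to between 57830 and 60324 in every muscle. The arrays had been quantile normalized, which holds the medians and the signals of the brightest genes close together. Similar medians and sums therefore do not show that fibre content was equal. None of the 8 was called in any comparison, with 1 at an unadjusted p under 0.05 in treated against C57 mice and none by the methods' t-test. That gene, Myh1, was called there without treated mouse 2 (0.40 log2 units, adjusted p = 0.039). Dmd itself had log2 signals from 5.77 to 5.87 in C57, from 4.60 to 5.82 in mdx and from 5.51 to 6.34 in treated muscle. Its 80 probes span far more than the mutated exon, so they do not check the genotype. Treated mouse 2 stood apart, with a spread around its group mean over all tested probe sets (median absolute deviation) of 0.285 log2 units against 0.115 to 0.193 in the other 10 mice. The paper names a treated sample T2 as having the least exon skipping by quantitative PCR and the least dystrophin by mass spectrometry. Its western blot values were not significantly correlated with either. From its mRNA data the paper also reports the least restoration in T2, which clustered nearer to mdx than the other treated samples. Whether the low exon skipping and dystrophin of T2 bear on the spread was not tested. Counts of called genes that changed without treated mouse 2 in treated against mdx muscle are given both ways. Leaving out that mouse raised the calls over all probe sets tested in this comparison from 1615 to 4103. Leaving out treated mouse 1, 3 or 4 lowered them to 490, 380 or 269. Without mdx mouse 1, 2, 3 or 4 they were 1246, 986, 559 or 354. The gene lists below were refitted without treated mouse 2 only, so their counts without other mice are not known.

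The start regions of these genes were taken from RefSeq promoter sequences of GRCm38.p6, which list 8 of the 10 genes in windows from 250 bases before to 50 bases after the annotated start. Short windows are shown for some of the genes that were higher in mdx muscle below, to show which core promoter letters they hold. Not every match found is shown, and Tuba1b, which was also higher there, has no window shown. The CCAAT motif, searched on both strands, was found in Tuba1a, Tuba1c, Tubb3 and Tubb5 and in 37.4% of all 32851 promoter windows. TATAAA was found in Tubb2a and in 13.6% of all windows, and TGACGTCA, the full cyclic AMP response element, in Tubb2a and in 1.79% of all windows. GGGCGG was held by 6 of the 8 genes and by 35.7% of all windows, and CAGCTG, an E-box, by Tuba1b and by 16.3%. Motif letters are in capitals, and those shown do not overlap each other.
Tubb2a, chr13:34078020-34078049, minus strand, TATAAA 29 bases before the start: gcggtccccgggTATAAAaggcggtgctgg
Tubb2a, chr13:34078049-34078078, minus strand, TGACGTCA 59 bases before the start: ctctgcccccaTGACGTCAgcgggactggg
Tubb5, chr17:35838374-35838403, minus strand, CCAAT 90 bases before the start: ctggctcagaaaCCAATggccgcctggcac
Tuba1a, chr15:98953660-98953689, minus strand, CCAAT 176 bases before the start: atgtcgcttgcaCCAATcaccactctcctg
Tuba1c, chr15:99029728-99029757, plus strand, CCAAT read in reverse 151 bases before the start: tgcttaggacccATTGGaggcaactgagac
The windows of the 3 CCAAT genes shown differ in where the motif sits and in its direction, and the Tubb2a windows hold none of it. A match describes letters only, and no binding was measured.

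To ask what the loss of dystrophin changed, mdx muscle was compared with C57. Most of the 10 tubulins were up-regulated in mdx muscle, from 1.44-fold for Tubb5 to 3.51-fold for Tubb6, and Tuba8 was down-regulated 1.40-fold. At a Benjamini-Hochberg adjusted p under 0.05 (limma, over the 14494 probe sets that reached a group mean of 30), 7 of the 9 tubulins tested were higher and 1 was lower, while 7.06% of all probe sets tested were higher and 4.96% lower. All mdx mice lay above all C57 mice for the same 7 genes, and this held for 13.1% of all probe sets tested. Such a share was computed for this direction and, further below, for treated mice under mdx mice. For other separations of single genes it was not computed, so they are descriptions only. The median difference of the 9 tubulins was 0.59 log2 units, against -0.01 over all probe sets tested. In RNA of whole muscle, fewer cells of a type and less RNA per cell cannot be told apart.

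**Figure D1:**
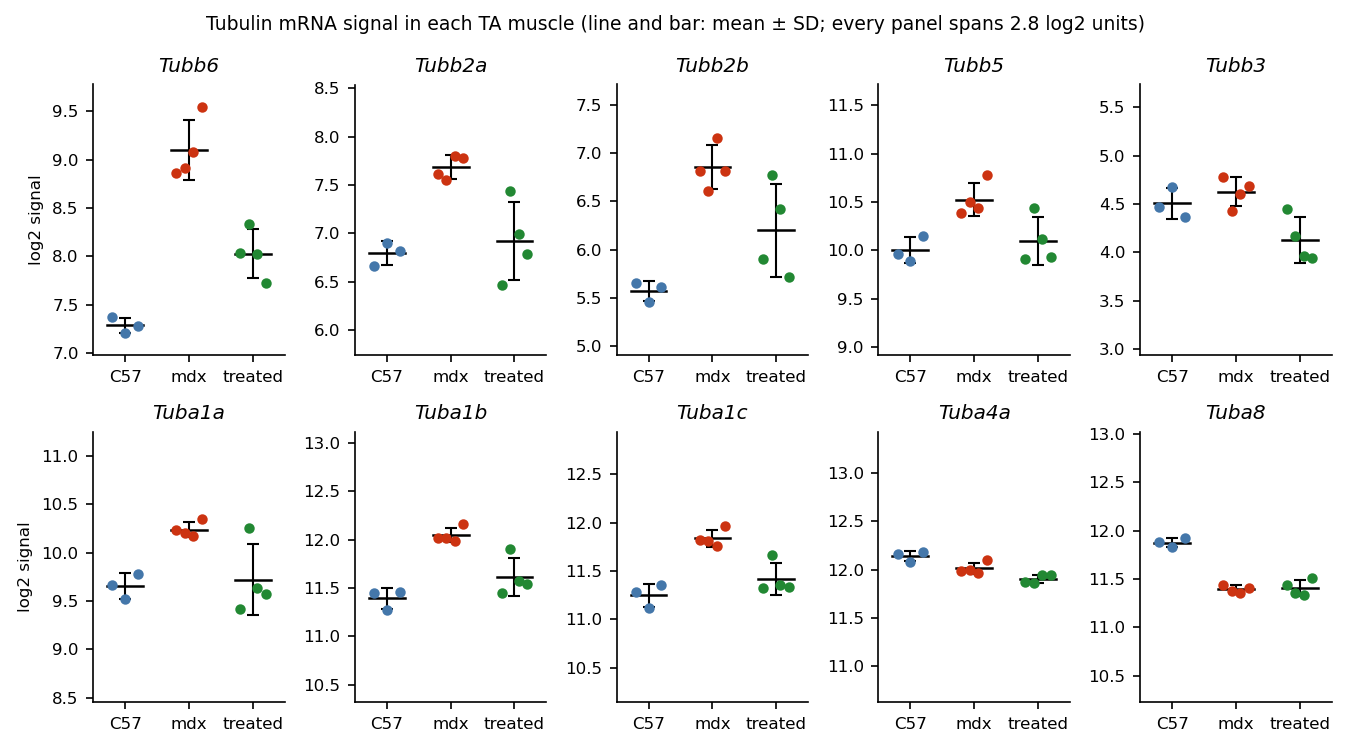
Log2 signal of the 10 tubulin genes in each TA muscle of the C57 (3), mdx (4) and treated mdx mice (4); points are mice, lines and bars are the mean and SD, and every panel has the same log2 span. The 4 mdx mice lie above the 3 C57 mice for 7 genes and below them for Tuba8, and treated mouse 2 (the second green point) lies within the mdx range for Tuba1a, Tubb2b and Tubb5.

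Among the beta tubulins, the largest change was that of Tubb6, the class V isotype. Its log2 signals were 7.37, 7.21 and 7.28 in C57 mice 1 to 3, 8.86, 8.91, 9.08 and 9.55 in mdx mice 1 to 4, and 8.03, 8.34, 8.02 and 7.72 in treated mice 1 to 4. The 3 groups did not overlap, and the treated mice lay between the others. The mdx minus C57 difference was 1.81 ± 0.17 (log2, SE), a 3.51-fold rise with an adjusted p of 4.82e-05.

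Tubb2a and Tubb2b encode the class II beta tubulins, which are abundant in nerve and present in many other cells. Tubb2a signals were 6.66, 6.90 and 6.82 in C57, 7.61, 7.55, 7.80 and 7.78 in mdx, and 6.47, 7.44, 6.99 and 6.79 in treated mice. All mdx mice were above the other 7 mice, with treated mouse 2 the closest to them. Tubb2a rose by 0.89 ± 0.18 in mdx (1.86-fold, adjusted p = 0.00715). Tubb2b signals were 5.66, 5.46 and 5.61 in C57, 6.82, 6.61, 7.16 and 6.82 in mdx, and 5.90, 6.77, 6.42 and 5.72 in treated mice. Here the treated mice spread from just above C57 to within the mdx range. Tubb2b rose by 1.28 ± 0.22 in mdx (2.42-fold, adjusted p = 0.00276), and its second, cross-hybridizing probe set by 0.92 ± 0.12 (adjusted p = 0.000666).

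Tubb5, the ubiquitous class I beta tubulin, had signals of 9.96, 9.89 and 10.15 in C57, 10.39, 10.50, 10.44 and 10.78 in mdx, and 9.91, 10.44, 10.12 and 9.93 in treated mice. Its mdx minus C57 difference was 0.53 ± 0.14 (1.44-fold, adjusted p = 0.0315). This call was lost without C57 mouse 1 (adjusted p = 0.088) or 2 (0.13), or mdx mouse 2 (0.0643), 3 (0.051) or 4 (0.0753), and by the methods' t-test (0.078). Tubb3, the neuronal class III isotype, had mean signals under 30 in every group and was not tested. Its log2 signals ran from 4.37 to 4.68 in C57, from 4.43 to 4.78 in mdx and from 3.94 to 4.45 in treated muscle, and the C57 and mdx ranges overlapped.

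The 3 alpha tubulins of the Tuba1 cluster moved by similar amounts in mdx. Tuba1a, the main alpha tubulin of developing neurons, had signals of 9.67, 9.52 and 9.78 in C57, 10.24, 10.20, 10.17 and 10.35 in mdx, and 9.42, 10.26, 9.64 and 9.57 in treated mice. Treated mouse 2 was inside the mdx range and the other 3 treated mice were inside or below the C57 range. The mdx minus C57 difference of Tuba1a was 0.58 ± 0.17 (adjusted p = 0.0405). It was lost under more alternatives than any other of the 8 calls, with adjusted p between 0.0709 and 0.158 when any C57 mouse was left out, between 0.0698 and 0.0883 when any mdx mouse was left out and at 0.0584 without treated mouse 3. Without a minimum signal it was 0.0601, and 0.052 with arrays centred on their medians.

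Tuba1b and Tuba1c encode widely expressed alpha tubulins. Tuba1b signals were 11.45, 11.27 and 11.46 in C57, 12.02, 12.02, 11.99 and 12.16 in mdx, and 11.45, 11.90, 11.57 and 11.54 in treated mice. Tuba1b rose by 0.65 ± 0.11 in mdx (1.57-fold, adjusted p = 0.00313), and its other probe sets rose by 0.64 and 0.63. Tuba1c signals were 11.28, 11.12 and 11.35 in C57, 11.82, 11.81, 11.76 and 11.96 in mdx, and 11.32, 11.67, 11.35 and 11.33 in treated mice. In both genes the mdx mice were clear of the other 7 and treated mouse 2 was the highest treated mouse. Tuba1c rose by 0.59 ± 0.11 (adjusted p = 0.00462). Over the 11 mice both genes had a Pearson r of 0.99, a description of probe sets that may share signal.

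Tuba4a and Tuba8 behaved differently from the other alpha tubulins. Tuba8, an alpha tubulin found mainly in muscle and testis, had signals of 11.88, 11.83 and 11.92 in C57, 11.44, 11.38, 11.35 and 11.41 in mdx, and 11.44, 11.35, 11.33 and 11.51 in treated mice. All 8 mice of mdx genotype lay below all C57 mice. Tuba8 fell by 0.48 on the log2 scale in mdx (SE 0.08, adjusted p = 0.00288). Tuba4a, whose gene encodes an alpha tubulin without the usual C-terminal tyrosine, had signals of 12.16, 12.08 and 12.18 in C57, 11.99, 12.00, 11.96 and 12.10 in mdx, and 11.87, 11.86, 11.94 and 11.94 in treated mice. Its mdx and C57 mice overlapped, and the difference of -0.13 was not called (95% interval -0.30 to 0.05, adjusted p = 0.367).

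To ask what exon skipping changed, treated mdx muscle was compared with untreated mdx muscle. Tubb6, Tubb2a, Tuba1b and Tuba1c were down-regulated in treated muscle, from 2.10-fold for Tubb6 to 1.34-fold for Tuba1c. Thus 4 of the 9 tubulins tested were lower, against 3.88% of all probe sets tested, and none was higher, against 7.26% of all. No tubulin was higher at an unadjusted p under 0.05 either. All treated mice lay below all mdx mice for 5 of the 9, the 4 called genes and Tuba4a, and for 6.69% of all probe sets tested. The median difference of the 9 tubulins was -0.43, against 0.02 over all probe sets. The mdx mice enter this comparison and the one with C57, so the 2 sets of differences are not independent.

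**Figure D2:**
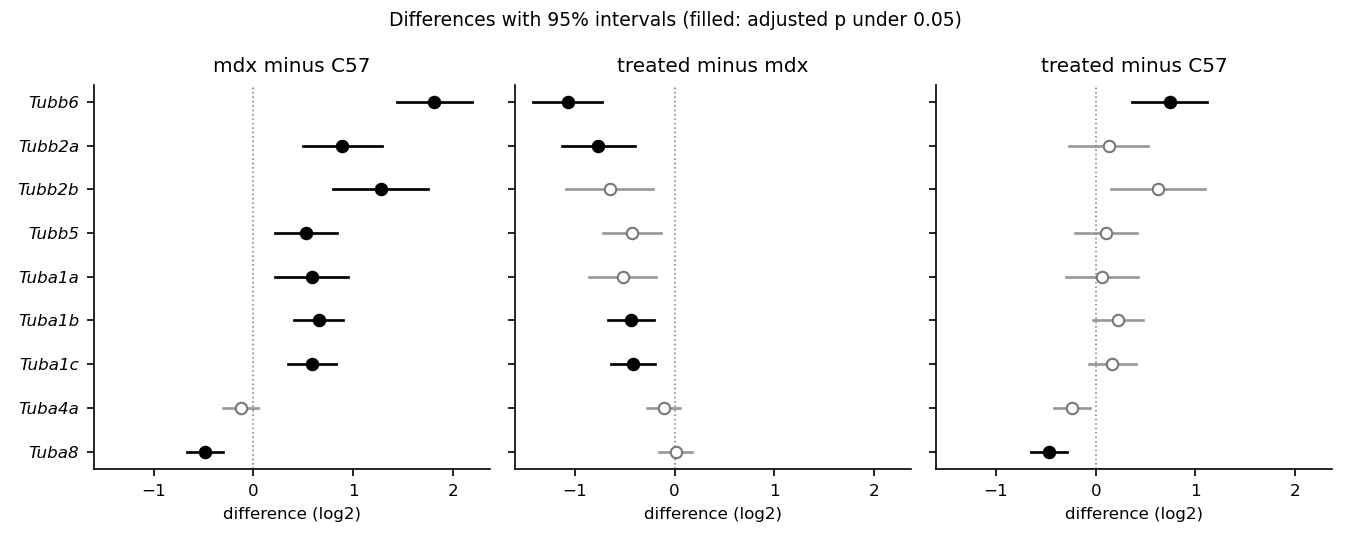
Differences in log2 signal of the 9 tubulins tested, with 95% intervals from limma, with panels for mdx against C57, treated against mdx, and treated against C57; filled points have an adjusted p under 0.05. The first panel has 8 filled points, the second 4, all below 0, and the third 2, for Tubb6 and Tuba8.

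Tubb6 fell by 1.07 on the log2 scale in treated muscle (SE 0.16, adjusted p = 0.00619). It was the call that remained when each of the 11 mice was left out in turn, with adjusted p between 0.00184 and 0.0259, although the methods' t-test gave 0.0813. Tubb2a fell by 0.76 (SE 0.17, adjusted p = 0.0213). Its adjusted p was 0.0569 or 0.0605 without mdx mouse 3 or 4, and 0.0535 or 0.0654 without treated mouse 3 or 4.

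Tuba1b fell by 0.43 (SE 0.11, adjusted p = 0.0284) and Tuba1c by 0.42 (SE 0.10, adjusted p = 0.0272). Tuba1b was not called without mdx mouse 2 (0.0508), 3 (0.0589) or 4 (0.0819), nor without treated mouse 1 (0.0723), 3 (0.0704) or 4 (0.0829). Tuba1c was not called without mdx mouse 3 (0.0547) or 4 (0.0799), nor without treated mouse 1 (0.0689), 3 (0.0709) or 4 (0.0815). Both were also past 0.05 when only mdx and treated mice were fitted, at 0.0529 and 0.0504. The methods' t-test called none of the 9 tubulins after adjustment, 7 of them at an unadjusted p under 0.05, the threshold that the methods name. At an unadjusted p under 0.01 and a change of at least 1.5-fold, only Tubb6 passed by that test, among 338 of all probe sets tested.

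A further 3 tubulins had lower means in treated muscle without passing the test. The differences were -0.52 ± 0.15 for Tuba1a (adjusted p = 0.0507), -0.65 ± 0.20 for Tubb2b (0.0573) and -0.43 ± 0.13 for Tubb5 (0.0563). All 3 were called with array weights, and also without treated mouse 2. Without it the differences were -0.70 for Tuba1a (adjusted p = 0.00207), -0.84 for Tubb2b (0.00628) and -0.54 for Tubb5 (0.00787), so that 7 of the 9 tubulins were called lower, while 4103 probe sets were called in all against 1615 with every mouse. The second Tubb2b probe set, flagged for cross-hybridization and placed on another chromosome than the first, was lower with every mouse included (-0.81 ± 0.12, adjusted p = 0.005). It may not measure Tubb2b itself.

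Tuba8 and Tuba4a were not called between treated and untreated mdx muscle. The Tuba8 difference was 0.01, with a 95% interval of -0.15 to 0.18, which excludes a return by the 0.48 lost in mdx. For Tuba4a it was -0.11, with an interval of -0.27 to 0.05, even though its treated mice, at 11.86 to 11.94, all lay below its mdx mice, at 11.96 to 12.10.

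To ask what still differed from wild type after treatment, treated mice were compared with C57. Tubb6 was 1.67-fold higher (0.74 ± 0.17, adjusted p = 0.0104) and Tuba8 1.38-fold lower (-0.47 ± 0.08, adjusted p = 0.00268). These were the only tubulins called, 1 of 9 in each direction, where 15.6% of all probe sets tested were higher and 8.96% lower. With arrays centred on their medians, 51.1% of all calls in this comparison were higher, against 63.6% without, and Tubb6 and Tuba8 kept their directions. By the methods' t-test Tubb6 was not called (adjusted p = 0.0516). At an unadjusted p under 0.01 and a change of at least 1.5-fold, it was the only tubulin that passed by that test, among 1096 of all probe sets tested.

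Tubb2b was at 0.63 ± 0.22 above C57 and was not called (adjusted p = 0.0543), but passed without treated mouse 1 (0.0469) or 4 (0.0238). Its second probe set was at 0.11 ± 0.12 above C57 (adjusted p = 0.53). Tuba4a was at -0.24 ± 0.08 (adjusted p = 0.0501) and passed under 6 of the 12 alternatives other than leaving out a mouse, with adjusted p from 0.0113 to 0.185 over the 12. Tubb2a, Tubb5, Tuba1a, Tuba1b and Tuba1c differed from C57 by 0.07 to 0.22 log2 units, none called. The 95% intervals of these 5 differences all held 0, that of Tubb2a running from -0.27 to 0.52 and that of Tuba1c from -0.07 to 0.41.

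The share of the mdx difference that each treated mouse had lost was computed for the 8 tubulins called in mdx, as a description on the log2 scale, where 0% is the mdx mean and 100% the C57 mean. For Tubb6 the shares were 59.0%, 41.9%, 59.6% and 76.1% in treated mice 1 to 4. No treated mouse reached the C57 mean of Tubb6. Tubb2a shares were 136%, 27.5%, 77.9% and 100.4%, and Tuba1a shares 141%, -3.43%, 103% and 115%. For these 2 genes some treated mice lay at or beyond the C57 mean and mouse 2 near the mdx mean. Tuba8 shares were 9.34%, -9.34%, -13.5% and 23.9%, the lowest set of the 8. Mouse 2 had the smallest share for 7 of the 8 genes, and its median over them was 19.6%, against 89.7%, 75.1% and 87.6% in mice 1, 3 and 4.

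**Figure D3:**
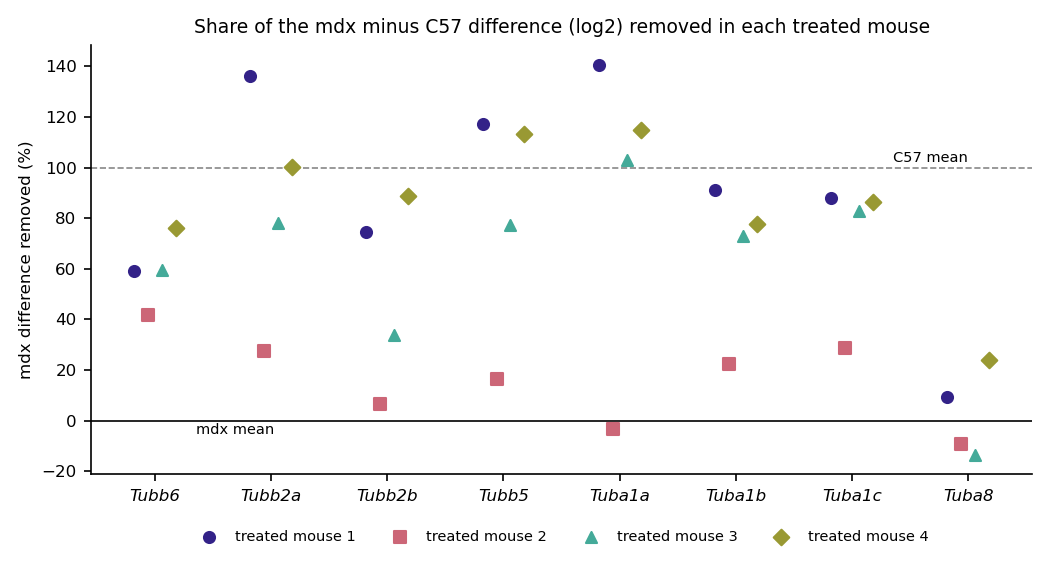
Share of the mdx minus C57 difference (log2) lost in each of the 4 treated mice, for the 8 tubulins called between mdx and C57; 0% is the mdx mean and 100% the C57 mean. The squares of mouse 2 are the lowest of the 4 for every gene but Tuba8, and all 4 mice lie under 25% for Tuba8.

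The array held 10 further tubulin genes, of which 7 were tested. In mdx against C57 none of the 7 was called by limma, with 4 at an unadjusted p under 0.05, and none by the methods' t-test. Their median difference was -0.27. Tubg1 and Tubg2, the gamma tubulins that nucleate microtubules, were at -0.36 ± 0.11 (adjusted p = 0.0505) and -0.27 ± 0.09 (0.0647). Without treated mouse 2, which enters the shared spread, Tubg1 was called (adjusted p = 0.0223). Of the beta tubulins, Tubb4 (now Tubb4a), a neural isotype, was at -0.38 ± 0.15 and Tubb2c (now Tubb4b), which is found in many tissues, at 0.12 ± 0.11, while Tubb1, the platelet isotype, was at 0.25 ± 0.10. Tuba3a was at -0.22 and Tubd1, delta tubulin, at -0.40, and Tuba3b, Tubal3 and Tube1 were too dim to test. In treated against mdx muscle 1 of the 7 was lower, against 3.88% of all probe sets tested. It was Tubb1, at -0.35 ± 0.09 (adjusted p = 0.0329). Without treated mouse 2 Tuba3a was lower as well. Against 8.96% of all probe sets tested, 4 of the 7 were lower in treated than in C57 muscle. They were Tubb4 at -0.52, Tuba3a at -0.46, Tubg1 at -0.38 and Tubg2 at -0.37. The methods' t-test called 1 of the 7.

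Genes whose products act on tubulin were read from 4 lists. Tubulin folding takes place in the CCT chaperonin and through the tubulin cofactors. In mdx against C57, none of the 19 folding genes tested was called, with 1 at an unadjusted p under 0.05, and none by the methods' t-test. In treated against mdx muscle none was lower, against 3.88% of all probe sets tested, and 4 of 19 were higher, against 7.26%. These were the CCT subunits Cct6a at 0.66 ± 0.18 (adjusted p = 0.0367), Cct8 at 0.61 ± 0.11 (0.0117) and Cct3 at 0.55 ± 0.15 (0.036), and the cofactor Tbce at 0.58 ± 0.12 (0.0177). Cct8 signals were 7.08, 7.20 and 7.31 in C57, 7.33, 7.31, 7.13 and 6.93 in mdx, and 7.65, 7.69, 7.89 and 7.91 in treated mice. All 4 treated mice, mouse 2 included, were above the other 7. The median of the folding list was 0.20, against 0.02 over all probe sets. Without treated mouse 2, 7 of 19 were higher. Of all 14494 probe sets tested, 4103 were then called, 57.5% of them higher.

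Proteins that bind and stabilise microtubules gave the largest called changes of the 4 lists in mdx. Of 26 tested, 4 were higher and 1 lower than in C57, against 7.06% and 4.96% of all probe sets tested. Mtap1b (now Map1b) rose by 1.55 ± 0.21 (adjusted p = 0.000666), Dclk1, a doublecortin-like kinase, by 1.39 ± 0.18 (0.000506) and Mtap1a (now Map1a) by 1.25 ± 0.17 (0.000595). In treated against mdx muscle the differences were -0.09 for Mtap1b, -0.16 for Dclk1 and -0.13 for Mtap1a, none called. Mtap1b signals were 7.43, 6.95 and 6.87 in C57, 8.50, 8.26, 9.14 and 8.62 in mdx, and 8.28, 8.90, 8.52 and 8.47 in treated mice. Mtap1a signals were 6.03, 6.29 and 6.08 in C57, 7.24, 7.20, 7.65 and 7.43 in mdx, and 7.11, 7.69, 6.97 and 7.24 in treated mice. In both, every treated mouse was above every C57 mouse and the treated and mdx ranges overlapped. The treated minus C57 differences were 1.46 ± 0.21 for Mtap1b (adjusted p = 0.000814), 1.12 ± 0.17 for Mtap1a (0.000989) and 1.24 ± 0.18 for Dclk1 (0.000899). Tppp3 was also higher in mdx (0.71 ± 0.13), and was named after its values were seen. In treated against mdx muscle it was at -0.40 ± 0.12, not called (adjusted p = 0.0508), and called lower without treated mouse 2 (-0.46, adjusted p = 0.0175).

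Against 7.26% of all probe sets tested, 4 of the 26 were higher in treated than in mdx muscle. They were Tppp, a tubulin polymerization promoter, at 0.81 ± 0.21 (adjusted p = 0.0355), Clasp2, which stabilises plus ends, at 0.67 ± 0.19 (0.0444), Ckap5, a microtubule polymerase, at 0.53 ± 0.12 (0.0224) and Mapre1, the end-binding protein EB1, at 0.42 ± 0.09 (0.0196). Ckap5 signals were 5.68, 5.89 and 5.73 in C57, 5.88, 5.62, 5.87 and 5.46 in mdx, and 6.31, 6.0, 6.29 and 6.33 in treated mice, again with no overlap of the treated mice and the rest. The median of this list was 0.03. Without treated mouse 2, 5 of the 26 were higher and 1, Tppp3, was lower. Of all 14494 probe sets tested, 4103 were called without that mouse, 57.5% of them higher. Mapre1 and, in the folding list, Cct3 were named after their values were seen. The methods' t-test called none of the genes of these lists in this comparison.

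Of the 17 tubulin-modifying enzymes tested, 3 were higher in mdx than in C57, against 7.06% of all probe sets tested. Vash2 and Vash1, the vasohibins that remove the C-terminal tyrosine of alpha tubulin, rose by 0.75 ± 0.16 (adjusted p = 0.0101) and 0.49 ± 0.13 (0.0315), and Ttl, the ligase that puts it back, by 0.30 ± 0.08 (0.0372). The methods' t-test called none of the 17 in mdx, and without treated mouse 2, which enters the shared spread, 4 were higher by limma. All 3 were also above C57 in treated mice, by 0.73, 0.41 and 0.33. Ccdc23 (now Svbp), the partner of the vasohibins, was the 1 gene of this list called in treated against mdx muscle, at -0.41 ± 0.09 (adjusted p = 0.0239). Without treated mouse 2 the list had 3 higher and 2 lower. Of 11 nucleation genes, none was called in mdx, nor at an unadjusted p under 0.05, nor by the methods' t-test. Tubgcp5, a subunit of the gamma tubulin ring complex, was higher in treated than in mdx muscle by 0.76 ± 0.16 (adjusted p = 0.0177). Without treated mouse 2, 3 of 11 were higher. That fit called 4103 of all 14494 probe sets tested, 57.5% of them higher.

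**Figure D4:**
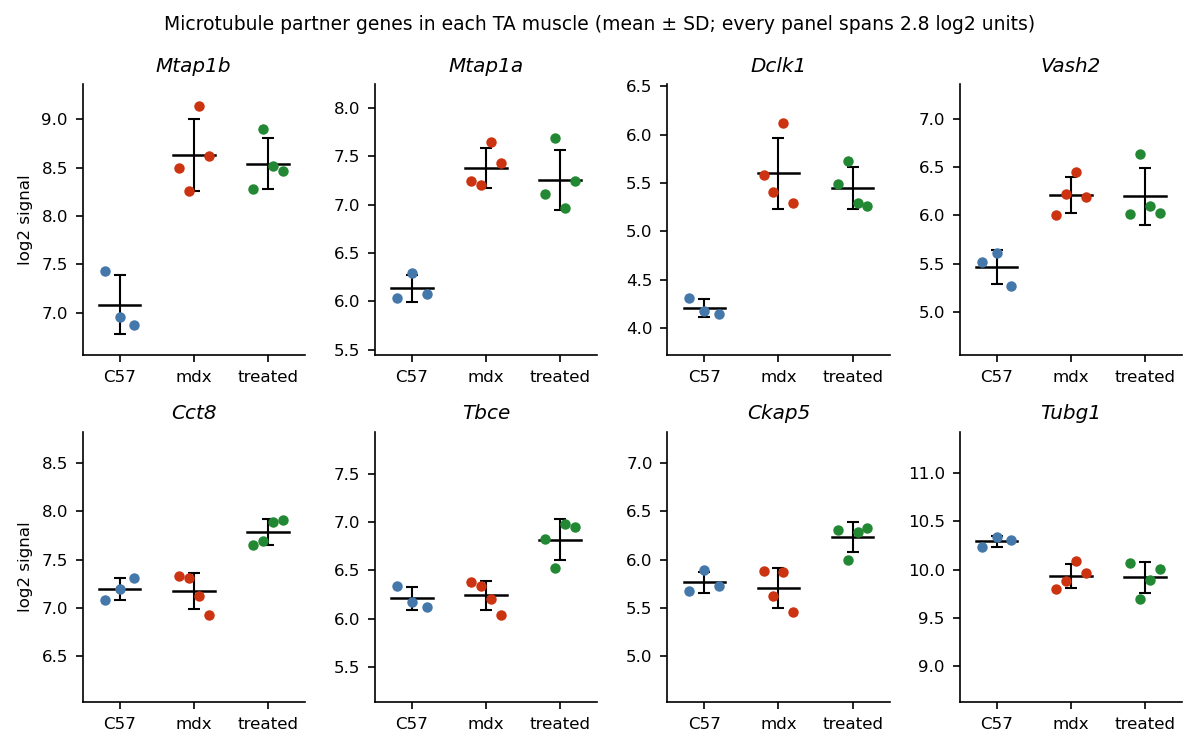
Log2 signal of 8 genes whose products act on or with tubulin in each TA muscle; points are mice, lines and bars the mean and SD, and every panel has the same log2 span. Mtap1b, Mtap1a, Dclk1 and Vash2 are above C57 in both mdx groups, Cct8, Tbce and Ckap5 are highest in treated mice, and all 8 mice of mdx genotype lie below C57 for Tubg1.

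Of the markers of other cells of muscle, some of macrophages and of regenerating fibres were higher in mdx and lower after treatment. With every mouse included, no other marker list had a gene called lower after treatment. Over all probe sets tested, 7.06% were higher in mdx and 3.88% lower after treatment. All 10 macrophage markers, among them Cd68 and Lgals3, were higher in mdx than in C57, and 3 of 10 were lower in treated than in mdx muscle. Their summed linear signal ran from 1186 to 1627 in C57, from 3463 to 5562 in mdx and from 2461 to 3568 in treated muscle. Of 10 markers of regenerating fibres, such as embryonic myosin Myh3 and Myog, 8 were higher in mdx and 2 were lower after treatment, with sums of 3556 to 4802, 9302 to 11403 and 5899 to 9655. Without treated mouse 2, 5 of the macrophage and 7 of the regenerating fibre markers were lower after treatment. That fit called 4103 of all 14494 probe sets tested, 57.5% of them higher. By the methods' t-test 6 macrophage and 3 regenerating fibre markers were called in mdx against C57, and none of either list after treatment. Fibroblast and matrix genes were higher in mdx for 4 of 8, with sums from 5575 to 7457 in C57, from 9139 to 10704 in mdx and from 7713 to 13020 in treated muscle, and none was called after treatment, with 2 at an unadjusted p under 0.05 and none by the methods' t-test. That test called 2 of the 8 in mdx. Without treated mouse 2, Pdgfra was higher and Fn1 lower after treatment.

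Of 10 peripheral nerve markers 6 were tested, and in mdx 3 of them, among them the myelin gene Mbp, were lower and 1 was higher, while the methods' t-test called none. Their sums ran from 1741 to 2690 in C57, from 1358 to 1718 in mdx and from 1269 to 1506 in treated muscle, and S100b, Nefl, Nefm and Gap43 were under the minimum signal. Of 8 genes of dividing cells, 6 were under the minimum signal in every group, Mki67 and Top2a among them, and neither of the other 2 was called in mdx by either test, with 1 at an unadjusted p under 0.05. The 4 blood genes had none called in mdx by either test and none at an unadjusted p under 0.05, and the 5 endothelial genes none called, with 1 at an unadjusted p under 0.05. In treated against mdx muscle 2 of the 5 endothelial genes, Pecam1 and Tek, were higher, against 7.26% of all probe sets tested. No nerve, dividing cell or blood gene was called, with 2 nerve genes at an unadjusted p under 0.05. The methods' t-test called none of these genes there. Without treated mouse 2, Kdr was higher as well and the nerve gene Egr2 was lower (-0.66, adjusted p = 0.0136). The part of these cells in the tubulin results was not tested.

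**Figure D5:**
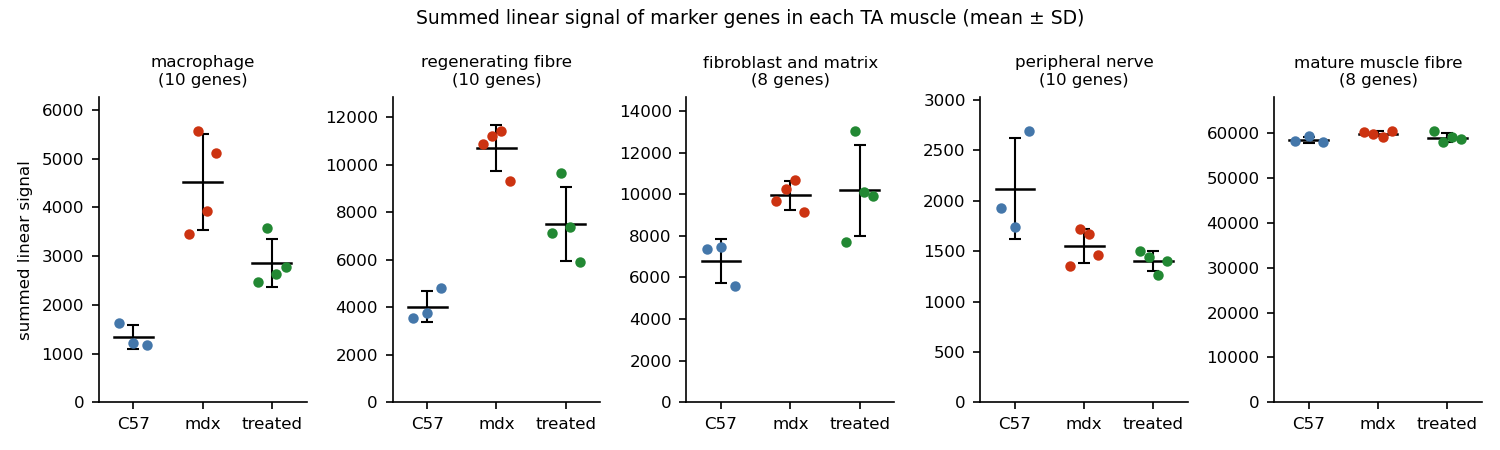
Summed linear signal of the marker genes of 5 cell types in each TA muscle; points are mice, lines and bars the mean and SD, and each axis starts at 0. Macrophage and regenerating fibre sums are higher in all 4 mdx mice than in the 3 C57 mice, and mature fibre sums lie near the same height in all 11 muscles. After quantile normalization, similar sums of such bright genes do not show equal fibre content.

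The genes most like 3 of the tubulins over the 11 mice were listed as a description, since the 3 groups alone give many genes a shared pattern. Tubb6 was closest to Gm11428, Csf3r, the receptor of granulocyte colony-stimulating factor, and Tifab, with Pearson r of 0.98, 0.97 and 0.96. Tubb2a was closest to Tmem176b, Nab2, a co-repressor of EGR factors, and Phlda1, each at 0.96. Tuba1c was closest to Tmem173, which encodes STING, C1qb, a chain of complement C1q, and Rac2, a GTPase of blood cells, at 0.98, 0.97 and 0.97. Csf3r, at mean log2 signals of 4.22 in C57, 5.21 in mdx and 4.48 in treated mice, was one of the dimmest of these genes and close to the minimum signal.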

How the data were processed

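The 11 arrays were hybridised with RNA of TA sections. Per the study's methods and the submitters' processing notes, the authors made the deposited signal intensities in Affymetrix Expression Console by RMA (background correction, quantile normalization and median polish), without pooling mice, and deposited them on the linear scale. The log2 of all 311850 values falls on multiples of 0.01 (tolerance 0.0001), so finer differences are lost. The number of arrays, 3 or 4 per group, limits the precision. The genome build of the deposited positions is not given in the sources used here.

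Groups were taken from the sample labels. In R 4.3.3, limma 3.58.1 (lmFit, eBayes) fitted log2 intensities of all 11 mice with 1 mean per group, over 14494 probe sets (51.1%), those whose mean signal reached 30 in some group. Tests were two-sided and adjusted over these probe sets by Benjamini-Hochberg, with 0.05 as the threshold. The study's methods name an unpaired two-sided t-test with p under 0.05, which was run as an alternative ("the methods' t-test"); equal variances were assumed here, and its calls are after Benjamini-Hochberg adjustment unless stated. To choose mRNAs changed in mdx muscle, the paper used p under 0.01 and a change over 1.5-fold. It also names a t-test with permutation and false discovery correction, which was not run here. By the t-test run here, unadjusted, 5 of the 9 tubulins passed that cutoff in mdx against C57, among 852 of all probe sets tested. They were Tuba1b, Tuba1c, Tubb2a, Tubb2b and Tubb6. Where a gene had more than 1 probe set, the brightest on average was used. The fit was tested on simulated data. Same-numbered mice of different groups were checked for shared deviations. The correlations of the 10 pairs lay between -0.30 and 0.15, so the numbers were not taken as pairs.

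The members, the gene lists and the tests were chosen with earlier results of these data known. Named were all 10 members, all other tubulin genes, up to 3 genes with the largest called difference per pathway list in mdx minus C57 and in treated minus mdx, and the 3 genes most correlated with Tubb2a, Tubb6 and Tuba1c. Symbols were used as deposited, with current names from the RefSeq gene table, and all listed genes were found on the array. Alternatives were the t-test, the groups fitted, the prior, array weights, the minimum signal (none, or 100), 2 normalizations, the choice of probe sets, the replicate block and each mouse left out. Tubulin protein sequences were not used here. Some called genes counted in the lists are not reported here by name.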

Additional observations from a re-analysis of the deposited data

Results flagged for a closer look

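In 20 groups of 4 mice (the mdx and the treated mice of each tubulin), 1 mouse lay far from the other 3 by Dixon's criterion. It was the Tuba1c signal of treated mouse 2, at 11.67 (log2) against 11.32, 11.35 and 11.33 in the other treated mice, a gap of 0.914 of the group's range. Chance flags about 1 in 20 such groups. Without this mouse the treated minus mdx difference of Tuba1c was -0.50.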

How the results depend on the processing

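In mdx minus C57, 187 of 205 gene-by-alternative values kept their direction and side of the threshold, none reversed, and 18 were no longer called, all of them Tuba1a or Tubb5. The count of called tubulins was 8 and ranged from 6 to 8 with a mouse left out. In treated minus mdx the count was 4 and ranged from 1 to 7 with a mouse left out (1 without mdx mouse 3 or 4 or treated mouse 3 or 4, 2 without treated mouse 1, 7 without treated mouse 2). It was 0 by the methods' t-test, 2 with only the groups compared, 7 with array weights and 2 at probe sets of crosshyb type 1, where Tuba1b and Tuba1c are left out. In treated minus C57 the count was 2, with 4 under the trended and robust prior, 5 with array weights, and 2 to 3 with a mouse left out. Of the 2, Tubb6 was lost by the methods' t-test (adjusted p = 0.0516), which called Tuba4a instead. The cause of these changes was not tested.

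The reversals were of differences that were not called, with a mouse left out. Tuba8 in treated minus mdx ranged from -0.022 to 0.038, and in treated minus C57 Tuba1a ranged from -0.11 to 0.17, Tubb2a from -0.043 to 0.28 and Tubb5 from -0.013 to 0.18. With the replicate block the counts were 6, 2 and 2, but the numbers do not pair the mice. Reading Tuba1b on chromosome 15, an alternative chosen after seeing the data, left the counts at 8, 4 and 2.

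Over all probe sets tested, limma with every mouse called 1742, 1615 and 3564 for mdx against C57, treated against mdx, and treated against C57. The methods' t-test called 791, 88 and 1274, array weights 3379, 4614 and 6547, the minimum signal of 100 1151, 1092 and 2228, the replicate block 1145, 498 and 2332, and only the groups compared 1880, 730 and 2704. Arrays centred on their medians, and quantile normalization repeated, moved the share of higher calls in treated minus C57 from 63.6% to 51.1% and 48.2%. Signals near 30 and differences finer than a hundredth of a log2 unit are not resolved.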
